A study of Drosophila melanogaster with 2 samples.

Results

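The distal intergenic peaks of the zinc-finger protein ZIPIC (CG7928) in Drosophila melanogaster embryos are the binding sites that lie away from gene starts and outside genes. They were chosen by position alone: the summit had to lie more than 500 bp from every annotated transcript start and inside no annotated gene, with transposable elements left out of both conditions. Of the optimal peaks on the dm6 build, 226 (7.61%) met the rule; the others were 713 distal peaks inside genes and 2032 promoter peaks, within 500 bp of a start. ChIP-seq, the sequencing of DNA that co-precipitates with a protein, had been done with an antibody against GFP on whole embryos of both sexes, aged 0 to 24 h. The embryos came from 1 transgenic line that stably expresses ZIPIC with GFP at its C terminus, so all values describe the tagged protein in mixed cell types and stages. The 2 samples, biological replicates 2 and 3, form 1 group without a second condition, and no test over samples was possible. Shares are therefore given with exact Clopper-Pearson 95% intervals, which cover counting error over peaks only and take the peaks as independent.

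ZIPIC belongs to the architectural, or insulator, proteins. It binds DNA through its zinc fingers and interacts with CP190, a cofactor that several insulator proteins share. In flies such proteins are known mainly from promoters and from borders between chromatin domains. A site outside genes can lie between genes that run the same way (tandem), between genes whose 3′ ends face each other (convergent), or between genes whose starts face each other (divergent). Each setting puts different gene boundaries next to the site.

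The 8-base core CAGGGCTG, a candidate ZIPIC site, was sought on both strands in the 100 bp window centred on each summit. Earlier results of this peak list were known when it was chosen, so its presence at strong peaks is no independent support. It is shown here for the 20 strongest distal intergenic peaks, of which 9 held it exactly and 14 with up to 1 mismatch. Its share rose with peak strength in every class, as given below. Over all optimal peaks, 7.51% of windows held the exact core and 19.7% held it with up to 1 mismatch. The core is in capitals, in the 60 bases around it, on the strand that carries it; sequences are from the RefSeq Release 6 genome, which is dm6. The exact core was present at 9 of the 20 strongest, of which 7 are printed, named by their left and right flanking genes.
del / E2f2, chr2L:21154057-21154116, minus strand: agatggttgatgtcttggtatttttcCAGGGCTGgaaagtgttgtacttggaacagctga
Jhbp1 / CG14662, chr3R:4970810-4970869, plus strand: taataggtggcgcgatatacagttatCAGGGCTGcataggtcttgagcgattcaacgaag
lncRNA:CR45251 / CG6163, chr3L:11350987-11351046, plus strand: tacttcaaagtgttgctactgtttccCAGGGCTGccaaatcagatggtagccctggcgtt
CG7985 / CG14314, chr3R:18215434-18215493, plus strand: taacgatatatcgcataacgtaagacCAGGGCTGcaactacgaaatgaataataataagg
fuss / toy, chr4:980073-980132, minus strand: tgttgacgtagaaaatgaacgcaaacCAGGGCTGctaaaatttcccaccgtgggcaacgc
Srrm1 / RpS4, chr3L:13041028-13041087, minus strand: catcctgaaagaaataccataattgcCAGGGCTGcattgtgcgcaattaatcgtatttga
lncRNA:CR44513 / lncRNA:CR42719, chr3L:611836-611895, minus strand: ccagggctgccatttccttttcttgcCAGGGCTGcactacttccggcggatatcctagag

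The core with 1 mismatch was present at 5 others of the 20 strongest distal intergenic peaks, where the capitals mark the 8 bases aligned to it.
Nlg3 / Nlg1, chr3R:7643668-7643727, plus strand: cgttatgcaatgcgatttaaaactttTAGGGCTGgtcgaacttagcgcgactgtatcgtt
SkpA / CR46419, chrX:658201-658260, minus strand: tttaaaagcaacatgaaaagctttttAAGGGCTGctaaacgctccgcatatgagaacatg
lncRNA:CR32636 / RpS15Aa, chrX:13335015-13335074, minus strand: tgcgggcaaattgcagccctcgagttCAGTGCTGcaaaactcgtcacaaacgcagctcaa
bin / Mp, chr3L:6994609-6994668, minus strand: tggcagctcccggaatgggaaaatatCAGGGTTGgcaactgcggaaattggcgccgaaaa
CG42828 / CG4393, chr3R:23374541-23374600, plus strand: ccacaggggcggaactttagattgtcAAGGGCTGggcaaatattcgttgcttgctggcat
Counted from 1 at the 5′ end of the core, the substitutions were C1T at Nlg3 / Nlg1, C1A at SkpA / CR46419 and at CG42828 / CG4393, G4T at lncRNA:CR32636 / RpS15Aa, and C6T at bin / Mp. The stretch at lncRNA:CR32636 / RpS15Aa also holds cagccctc, which on the other strand matches the core with 1 mismatch as well. A match is a description of these letters and does not show a bound site.

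The strength of the distal intergenic peaks covered the lower range of the whole list. Their pooled signal, the authors' score per peak with no stated scale, had a median of 183 and ran from 126 to 1895. The median was 177 for distal peaks inside genes, 232 for promoter peaks and 209 for all optimal peaks, whose highest signal was 7447. In the replicates' own lists the distal intergenic peaks had a median signal of 105 in replicate 2, which listed 208 of them (92.04%, against 79.3% of all optimal peaks). In replicate 3, which listed 221 (97.8%, against 99.2% of all optimal peaks), the median was 88.5. Scores of different lists were each set by the authors. Between the replicates, ranks are compared, and scores only through the correlation and the plot given below.

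The 20 strongest distal intergenic peaks had signals of 636 and above, and 19 of them were among the strongest entries of both replicates, against 58.5% of all optimal peaks. Pooled signal largely sets this measure: at signals of 500 and above it was 96.6% of distal intergenic peaks, against 97.7% of distal peaks inside genes and 97.1% of promoter peaks. The strongest entries of a replicate are the top of its own list, as many as there are optimal peaks. The highest was between Nlg3 and Nlg1, which encode neuroligins, adhesion proteins of synapses. It had a pooled signal of 1895, and of 912 in replicate 2 and 999 in replicate 3, 4296 bp from Nlg3 and 14517 bp from Nlg1, whose 5′ ends both face it. A second, weaker peak (323) lay 893 bp away in the same interval. The next peak (1774) lay 343 bp past the 3′ end of SkpA, a core subunit of SCF ubiquitin ligases, with 863 in replicate 2 and 917 in replicate 3. The third (1755) lay 202 bp past the 3′ end of E2f2, a repressor of the E2F family, with 870 in replicate 2 and 881 in replicate 3. On the other side of it, 5545 bp away, was the 5′ end of del, or deadlock, which acts in the piRNA pathway.

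**Figure D1:**
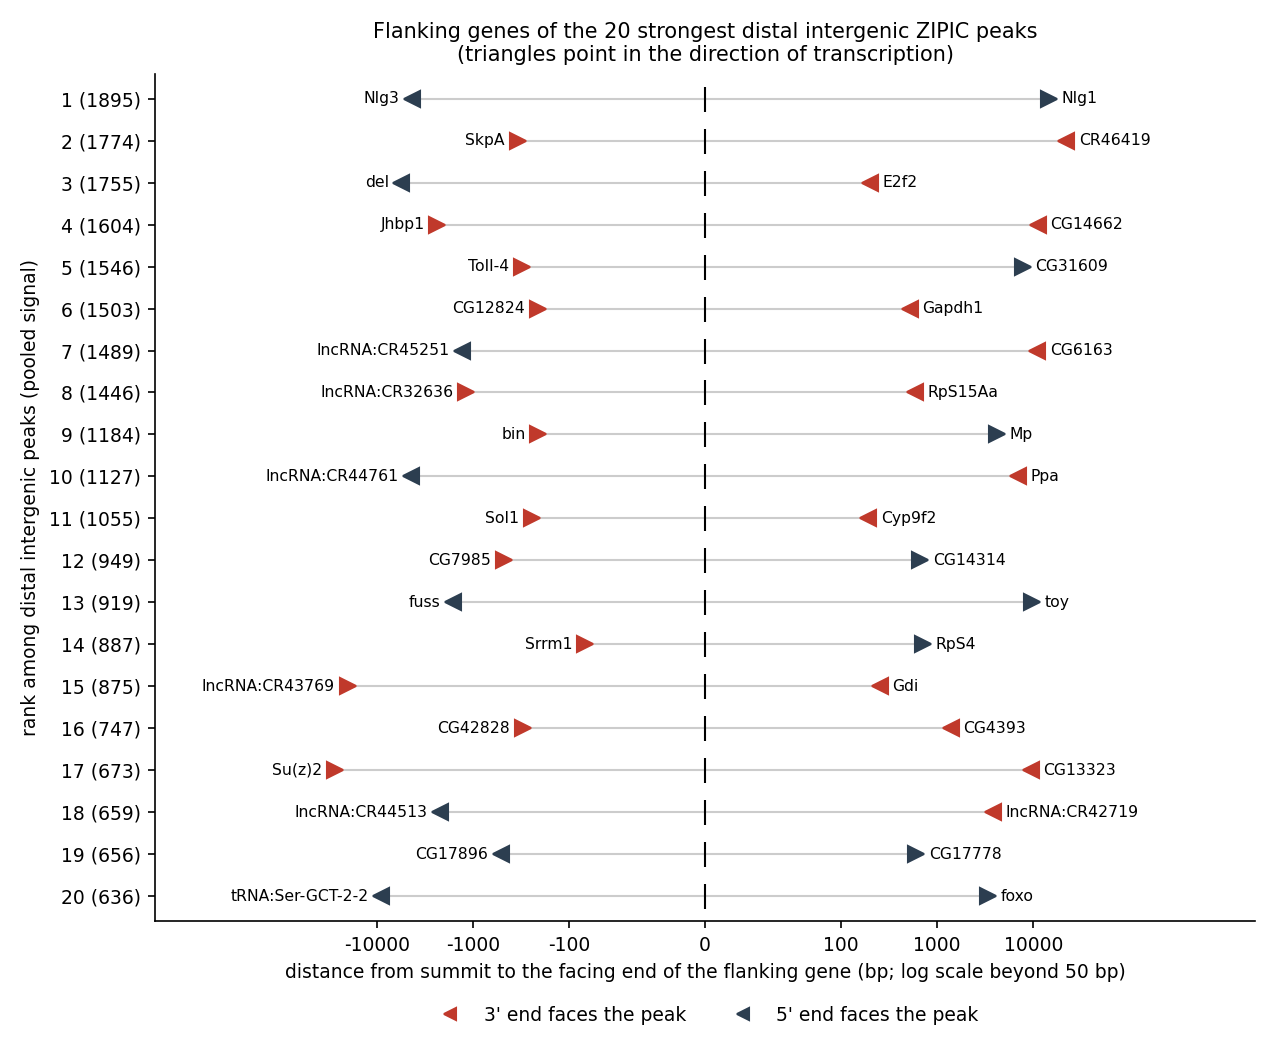
Flanking genes of the 20 strongest distal intergenic peaks, 1 row per peak from the strongest (signal 1895) down to rank 20 (636). Triangles mark the gene end that faces the summit at its distance in bp (log scale beyond 50 bp) and point in the direction of transcription; at 10 of the 20 peaks a 3′ end lies within 500 bp.

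Several of the 20 strongest were in short gaps between gene ends. Between CG12824 and Gapdh1, a glycolytic enzyme gene, both 3′ ends faced the summit, at 211 bp and 520 bp; the signal was 1503 pooled, 653 in replicate 2 and 856 in replicate 3. Between Sol1 and Cyp9f2, a cytochrome P450 gene, the whole interval was 437 bp, and both ends were within 245 bp of the summit. That peak had 1055 pooled, 659 in replicate 2 and 383 in replicate 3. It ranked 293 in replicate 2 and 448 in replicate 3. Small-subunit ribosomal protein genes flanked 2 of the 20. The peak beside RpS4 (887 pooled, 398 in replicate 2, 483 in replicate 3) lay 68 bp past the end of Srrm1, a splicing factor gene, and 712 bp before RpS4. The peak beside RpS15Aa (1446 pooled, 617 in replicate 2, 821 in replicate 3) lay 593 bp past the 3′ end of that gene. Both starts, of RpS4 and of RpS15Aa, also had another optimal peak within 500 bp.

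Transcription factor genes, picked here after their values were seen, flanked others of the 20 strongest. Biniou (bin), a forkhead factor of the visceral mesoderm, had a peak 209 bp past its 3′ end with 1184 pooled, 559 in replicate 2 and 630 in replicate 3. On its upstream side, toward CG43439, were another 2 weaker peaks (256 and 156). The peak between fuss and toy, a Pax6 gene of eye development, had 919 pooled, 448 in replicate 2 and 464 in replicate 3. It was divergent, 1603 bp from fuss and 9633 bp from toy. The peak 3374 bp upstream of foxo, a transcription factor of insulin signalling, had 636 pooled, 418 in replicate 2 and 238 in replicate 3. The interval that foxo shares with tRNA:Ser-GCT-2-2 held a second peak of nearly the same signal (602).

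Tandem and convergent pairs flanked the distal intergenic peaks about as often as they flank distal intergenic sequence, and the share with divergent pairs was higher by an amount that depended on the setting. The 2 flanking genes were known for 225 of the 226 peaks; the other lay past the last gene of its arm, beyond CR41519. Tandem pairs flanked 112 distal intergenic peaks (49.8%, interval 43.1 to 56.5), against 51.6% of 5888 weaker distal intergenic candidates and 52.4% of all distal intergenic bases. Weaker candidates are the entries of the pooled list below the optimal peaks that meet the same position rule, and the bases are the 35103682 positions of the 6 arms that meet it. Convergent pairs flanked 47 peaks (20.9%, 15.8 to 26.8), against 24.0% of candidates and 26.5% of bases. Divergent pairs flanked 66 peaks (29.3%, 23.5 to 35.8), against 24.5% of candidates and 21.1% of bases. The interval of the divergent share lay above the share of bases and held that of the candidates. It held the share of bases too under 3 alternatives: more than 1000 bp from starts (25.3%, 18.8 to 32.7, against 19.97% of bases), transposable elements counted as genes (25.9%, 20.2 to 32.3, against 22.1%), and only the optimal peaks above the median signal (27.9%, 18.8 to 38.6, against 21.1%).

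**Figure D2:**
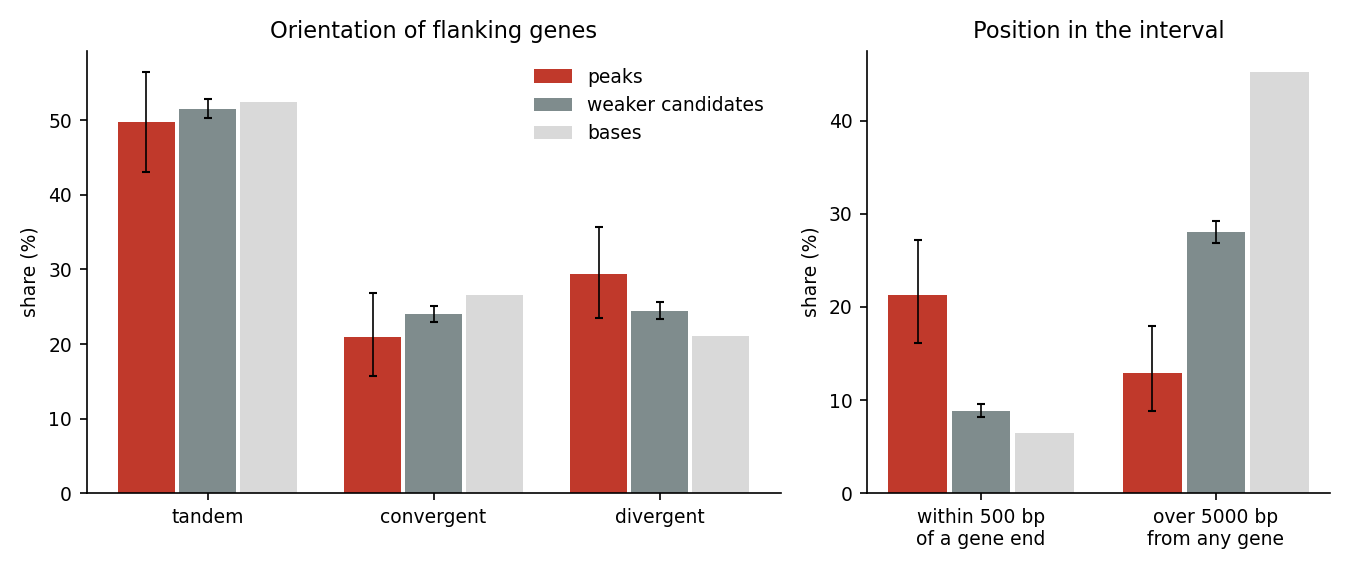
Shares (%) of distal intergenic peaks (red, n = 225 or 226), weaker distal intergenic candidates (dark grey) and distal intergenic bases (light grey) by orientation of the flanking genes and by position; bars on the first 2 groups are exact 95% intervals. The peaks have 21.2% within 500 bp of a gene end and 12.9% in deserts, against 8.86% and 28.0% of candidates.

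Gene ends were more frequent beside distal intergenic peaks than in distal intergenic sequence as a whole, and deserts were less frequent. A 3′ gene end was within 500 bp of 48 of the 226 summits (21.2%, 16.1 to 27.2), against 8.86% of candidates and 6.47% of bases. A summit within 500 bp of a gene can only face a 3′ end, since nearer starts are barred by the rule, so the candidates and bases under the same rule are the fair measure. The nearest gene boundary of any distance was a 3′ end for 109 of 225 peaks (48.4%, 41.8 to 55.2), against 52.3% of candidates. Deserts, here places more than 5000 bp from any gene, held 29 of 225 peaks (12.9%, 8.80 to 18.0), against 28.0% of candidates and 45.2% of bases. These shares were not tested against each other.

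The same held across distances. The median distance from summit to nearest gene was 1088 bp for the distal intergenic peaks, 2532 bp for the weaker candidates and 4226 bp for the bases. The intervals between genes were shorter as well, with a median of 6035 bp for the peaks against 12312 bp for the candidates. The nearest start was a median of 1787 bp away and the nearest 3′ end 2495 bp for the peaks, against 3508 bp and 3651 bp for the candidates. The distal intergenic peaks thus sat nearer to both kinds of boundary than the candidates did.

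**Figure D3:**
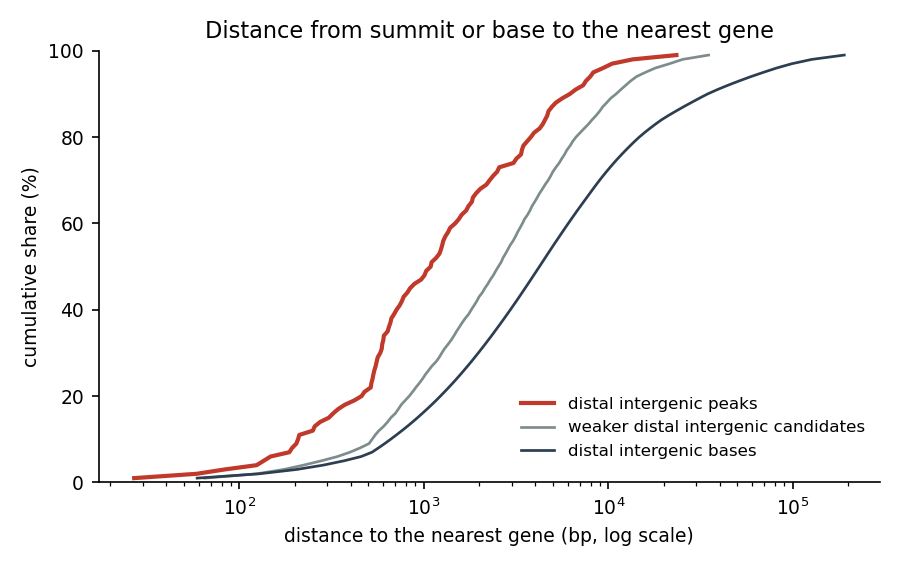
Cumulative share (%) of distal intergenic peaks, weaker candidates and distal intergenic bases by distance to the nearest gene (bp, log scale). The curve of the peaks lies left of the others, with medians of 1088, 2532 and 4226 bp, and the bend at 500 bp comes from the rule, which bars starts nearer than that.

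Within each orientation the peaks near gene ends were also more frequent than the bases. Of tandem peaks 27 of 112 were within 500 bp of an end (24.1%, 16.5 to 33.1), against 6.66% of tandem bases. Of convergent peaks 21 of 47 were (44.7%, 30.2 to 59.9), against 11.2% of convergent bases. A divergent interval holds none by the rule. Deserts held 9.82% of tandem, 19.1% of convergent and 13.6% of divergent peaks, against 45.9%, 47.4% and 40.9% of the bases of each class. Signal was similar in the 3 classes, with medians of 177 for tandem, 191 for convergent and 185 for divergent peaks.

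The 48 peaks beside gene ends lay in 48 different intervals, and the nearest gene was protein-coding for 42 of them. Their median signal was 192, against 183 for the 148 peaks in neither class and 163 for the 29 desert peaks. They made up 10 of the 20 strongest distal intergenic peaks. The nearest to an end was 6 bp past CG5895 (176 pooled, 68.2 in replicate 2, 113 in replicate 3), between it and Diap1, an inhibitor of apoptosis. The next was 12 bp past scf and 478 bp past Rac1, a small GTPase gene (210 pooled, 110 in replicate 2, 91.5 in replicate 3). In the shortest interval, 188 bp between the ends of CG6026 and cdi, the peak had 415 pooled, 214 in replicate 2 and 198 in replicate 3. Gene ends lay within 500 bp on both sides of 7 peaks, with signals of 143 to 1055.

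Desert peaks had the lowest median signal of the 3 position classes and often shared an interval. The 29 lay in 18 intervals, had a highest signal of 673, and 14 of them (48.3%, 29.4 to 67.5) were among the strongest entries of both replicates, an interval that holds the 58.5% of all optimal peaks. The farthest from any gene was 32047 bp away, in the 75047 bp between NijA, which encodes a ninjurin, and CG43245. It had 423 pooled, 183 in replicate 2 and 213 in replicate 3, and another 2 peaks (163 and 330) were in that interval. An interval next to reaper (rpr), a cell-death gene, held a peak 24724 bp from the nearest gene with 128 pooled, 80.7 in replicate 2 and 42.8 in replicate 3. That peak ranked 1823 in replicate 2 and 7311 in replicate 3. The desert peak with the highest signal, in the 36783 bp between the Polycomb-group gene Su(z)2 and CG13323, had 673 pooled and 230 in replicate 3 but no entry in replicate 2.

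Most intervals with a distal intergenic peak held just 1 (158), and 27 held 2 or more. The 225 peaks lay in 185 intervals, and 67 of them were in 27 intervals that held 2 or more, so the peaks are not all independent places. Moreover, 10 peaks overlapped another of the 226, and 1 interval of coordinates, between lncRNA:CR44761 and Ppa, is listed 2 times with summits 200 bp apart (1127 and 156) that fall in the same entry of each replicate. The fullest, 20910 bp between lncRNA:CR44603 and lncRNA:CR45695, held 6 peaks over 13730 bp with signals of 131 to 579, and 4 of them were among the strongest entries of both replicates. The next interval, between lncRNA:CR45695 and chinmo, a BTB zinc-finger gene of neuronal timing, held another 2 (171 and 160). Between lncRNA:CR45251 and CG6163 were 4 peaks of 191 to 1489, of which the strongest alone held the core. Between lncRNA:CR44526 and SrpRbeta were 4 peaks of 127 to 258, and lncRNA:CR44526 is separated from the pair-rule gene hairy (hry) by an interval with 2 more (158 and 154). In all, 13 genes had a distal intergenic peak in both adjoining intervals, and bin and nAChRalpha7, a subunit of a nicotinic acetylcholine receptor, were among them.

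Polycomb-group genes appeared in these intervals by name. The tandem pair ph-d and ph-p, duplicate polyhomeotic genes, held 2 peaks with summits 203 bp apart and signals of 303 and 141. The first had 204 in replicate 2 and 100 in replicate 3, and the second had no entry in replicate 2. The interval of CG13321 and Psc, like polyhomeotic a subunit of Polycomb repressive complex PRC1, held 2 peaks (230 and 196), both among the strongest entries of both replicates. These genes come from the naming rule, and no list of Polycomb genes was counted.

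The spacing of distal intergenic peaks was close to that of the whole list at short range and wider at longer range. The next optimal summit of any class was a median of 5707 bp away, against 5073 bp over all optimal peaks. Another optimal summit was within 1000 bp of 44 distal intergenic peaks (19.5%) and of 19.7% of all optimal peaks. Within 10000 bp it was 130 distal intergenic peaks (57.5%, 50.8 to 64.1), against 67.3% of distal peaks inside genes, 66.7% of promoter peaks and 66.2% of all optimal peaks. By arm, the peaks numbered 45 on 2L, 35 on 2R, 64 on 3L, 47 on 3R, 5 on 4 and 30 on X. Arm 3L held 28.3% (22.5 to 34.7) of the distal intergenic peaks, against 19.99% of all optimal peaks and 25.5% of distal intergenic bases. The small arm 4 held 2.21% (0.722 to 5.09), against 0.370% of all optimal peaks and 0.480% of the bases, on 5 peaks.

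The genes that flank distal intergenic peaks were bound at their own start about as often as genes in general. Of 358 distinct flanking genes, 59 had an optimal summit within 500 bp of a start (16.5%, 12.8 to 20.7), against 15.0% of all 18164 gene models. Among protein-coding genes it was 52 of 271 flanking genes (19.2%), against 18.4% of all coding genes. Non-coding RNA genes were 81 of the flanking genes (22.6%), against 18.0% of all genes. Of these 81, 7 were bound (8.64%, 3.55 to 17.0), against 4.11% of all such genes. Both flanking genes were bound at 5 peaks, 1 at 58 and none at 163.

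Gene lists were counted among the flanking genes. Segmentation genes numbered 3 of 17, namely hry, the gap gene kni and slp1, a forkhead gene of the pair-rule and segment-polarity steps, and dorsoventral genes 1 of 9, the BMP antagonist gene sog. None of 8 Hox genes and none of 20 architectural protein genes flanked a distal intergenic peak. Of 92 cytoplasmic ribosomal protein genes 4 did (RpL17, RpS15Aa, RpS23 and RpS4), and of 591 tRNA, snRNA and snoRNA genes 4, all of them tRNA genes. Over all genes the share was 1.97%, which is not matched for the length of the intervals beside a gene. The segmentation, dorsoventral, Hox and architectural symbols were written after the files were seen. No excess or lack is therefore read from these counts. The peak between kni and cmpy, 16238 bp from kni and 1222 bp from cmpy, was the weakest of all 226, at 126.

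Over all signals, the core was found at a smaller share of distal intergenic peaks than of promoter peaks. For the exact core the interval held the promoter share. The exact core was in the 100 bp window of 14 of the 226 summits (6.19%, 3.43 to 10.2), against 7.51% of all optimal peaks. It was present at 2.52% of distal peaks inside genes, 9.40% of promoter peaks and 0.407% of weaker distal intergenic candidates. In the flanks of the distal intergenic peaks, 150 to 250 bp from the summit on each side, 1 of 452 windows of the same length (0.221%) held it. With up to 1 mismatch the core was at 28 peaks (12.4%, 8.39 to 17.4), against 19.7% of all optimal peaks and 4.18% of candidates. The shorter form AGGGNTG was at 29 peaks (12.8%), against 17% of all optimal peaks.

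Strength and core went together in all 3 classes. At signals of 500 and above, 15 of 29 distal intergenic peaks held the core at up to 1 mismatch (51.7%, 32.5 to 70.6), against 34.9% of 43 distal peaks inside genes and 62.9% of 550 promoter peaks. Between 250 and 500 it was 5 of 38 distal intergenic peaks (13.2%), against 8.70% of distal peaks inside genes and 14.9% of promoter peaks. Below 250 it was 8 of 159 distal intergenic peaks (5.03%, 2.20 to 9.67), against 4.14% of distal peaks inside genes and 9.52% of promoter peaks. The interval of the distal intergenic share at high signal held the shares of both other classes. The exact core at signals of 500 and above was at 34.5% of distal intergenic peaks (17.9 to 54.3). It was at 11.6% of distal peaks inside genes and 30.4% of promoter peaks. Between 250 and 500 these shares were 5.26%, 4.35% and 3.33%, and below 250 they were 1.26%, 1.32% and 1.01%.

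**Figure D4:**
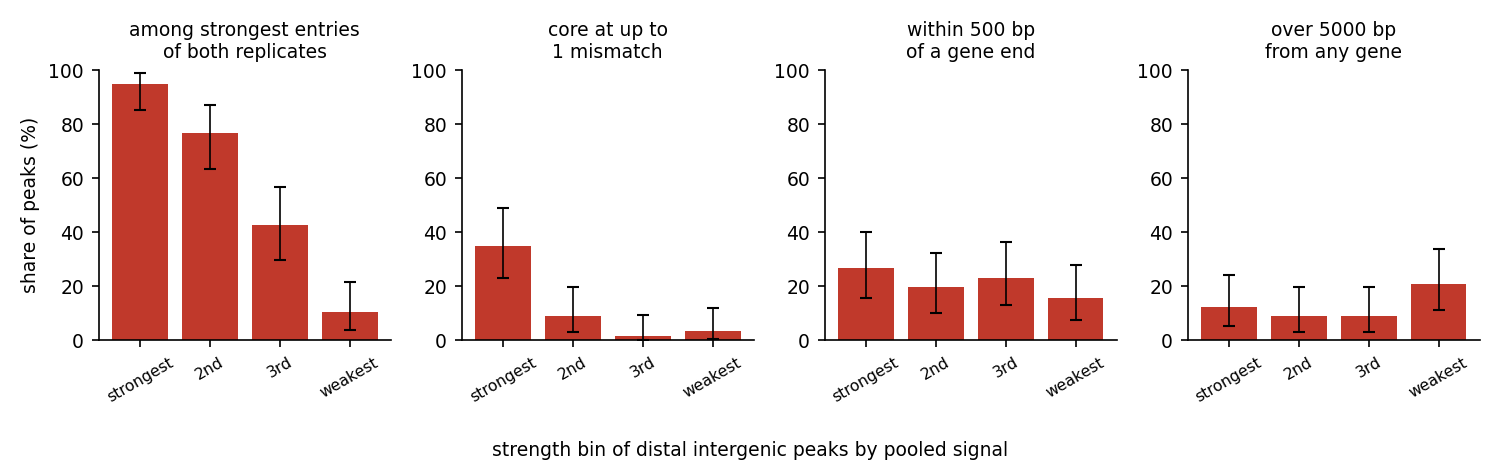
Share (%) of distal intergenic peaks in each of 4 bins by pooled signal (57, 56, 56 and 57 peaks, strongest left) that were among the strongest entries of both replicates, held the core at up to 1 mismatch, lay within 500 bp of a gene end or lay in a desert; bars are exact 95% intervals. The first share is 94.7% in the strongest and 10.5% in the weakest bin, the second 35.1% and 3.51%, while the intervals of both shares by position overlap across bins.

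Position moved with the core less clearly. The core at up to 1 mismatch was in the window of 10 of the 48 peaks beside gene ends (20.8%, 10.5 to 35.0), against 17 of the 148 in neither class (11.5%, 6.84 to 17.8) and 1 of the 29 desert peaks (3.45%, 0.0873 to 17.8). These intervals overlap. The exact core was at 0 of the 29 desert peaks. Among the 20 strongest, 14 held the core at up to 1 mismatch and 9 the exact core. The 6 without it were at Toll-4 / CG31609 (1546), Sol1 / Cyp9f2 (1055), lncRNA:CR43769 / Gdi (875), Su(z)2 / CG13323 (673), CG17896 / CG17778 (656) and tRNA:Ser-GCT-2-2 / foxo (636).

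The search window bounded how far from the summit a core could be found. Within it, the median distance from the centre of the core to the summit was 16 bp over the 28 peaks (0.5 to 43.5) and 13 bp over the 14 with the exact core. The base after the exact core was C at 12 of 14 distal intergenic peaks (85.7%, 57.2 to 98.2), against 57.1% of 191 promoter peaks. It was C at 44.4% of 18 distal peaks inside genes and at 57.8% of 223 over all optimal peaks. The interval held the last of these shares. A second copy at up to 1 mismatch was in the 200 bp window centred on the summit at 7 of 28 peaks (25%), against 17.9% of promoter peaks with the core. At lncRNA:CR44513 / lncRNA:CR42719 the printed stretch itself shows another copy, in lower case at its start. The printed stretches at lncRNA:CR45251 / CG6163 and lncRNA:CR32636 / RpS15Aa each show another with 1 mismatch, on the other strand.

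Other short motifs were sought in the same windows, on both strands. CGATA, part of the BEAF-32 motif, was at 12.8% (8.76 to 17.9) of the distal intergenic peaks, against 28.4% of promoter peaks and 9.56% of candidates. Distal peaks inside genes had it at 10.1%, within that interval, and all optimal peaks at 22.9%. TATCGATA, the motif of DREF, which contains CGATA, was at 1.33%, against 5.66% of promoter peaks. TGCATAC, from the Su(Hw) motif, was at 3.54% (1.54 to 6.86), against 1.03% of promoter peaks and 1.66% of candidates. Distal peaks inside genes had it at 2.52% and all optimal peaks at 1.58%, both within that interval. AGNNGGCGC, from the CTCF motif, was at 2.21%, against 1.41% of all optimal peaks. GGTCACACT, from the M1BP motif, was at 0.442%, against 1.41% of all optimal peaks, and GAGAGAG, the GAF motif, at 0.442%, against 0.841%. The early-embryo Zelda motif CAGGTAG was at 1.33% (0.275 to 3.83), against 0.438% of all optimal peaks, on 3 distal intergenic peaks. The E-box CACGTG was at 0.885%, against 0.808% of all optimal peaks, and the TATA box TATAAA at 15.0%, against 17.4%. These letters were present or absent in the windows, and nothing about the factors follows from them.

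The replicates ranked the distal intergenic peaks differently from the promoter peaks. A peak counted as strong in a replicate when its summit was held by one of that replicate's strongest entries. By that measure 127 distal intergenic peaks were strong in both (56.2%, 49.5 to 62.8), against 58.5% of all optimal peaks. In replicate 2 it was 193 (85.4%, 80.1 to 89.7), against 72.7% of all optimal peaks and 68.5% of promoter peaks. In replicate 3 it was 151 (66.8%, 60.3 to 72.9), against 81.5% of all optimal peaks and 87.5% of promoter peaks. Distal peaks inside genes had 80.6% in replicate 2 and 69.0% in replicate 3. Distal peaks were thus more often strong in replicate 2, and promoter peaks in replicate 3.

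Peaks that were strong in a single replicate divided in the same way. Strong in replicate 2 alone were 66 distal intergenic peaks (29.2%), against 8.46% of promoter peaks. In replicate 3 alone it was 24 (10.6%), against 27.5% of promoter peaks. Of the 203 distal intergenic peaks in both lists, 143 (70.4%) had the higher rank in replicate 2, against 57.7% of promoter peaks. It was 71.7% of 622 distal peaks inside genes and 62.5% over all optimal peaks, so the 2 distal classes were alike in this. Promoters made up 54.9% of replicate 2's strongest entries and 75.2% of replicate 3's, so the lists differ in make-up, and how that bears on the distal peaks was not tested.

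Across peaks, the log2 signals of the replicates had a Pearson r of 0.80 and a Spearman rho of 0.59 over the 203 distal intergenic peaks in both lists. The values were 0.90 and 0.84 over 1511 promoter peaks, and lower, 0.71 and 0.49, over 622 distal peaks inside genes. The peaks share their libraries and the control, and the optimal peaks are the strongest of the pooled list, which narrows the range at the weak end. These coefficients describe peaks and carry no test.

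**Figure D5:**
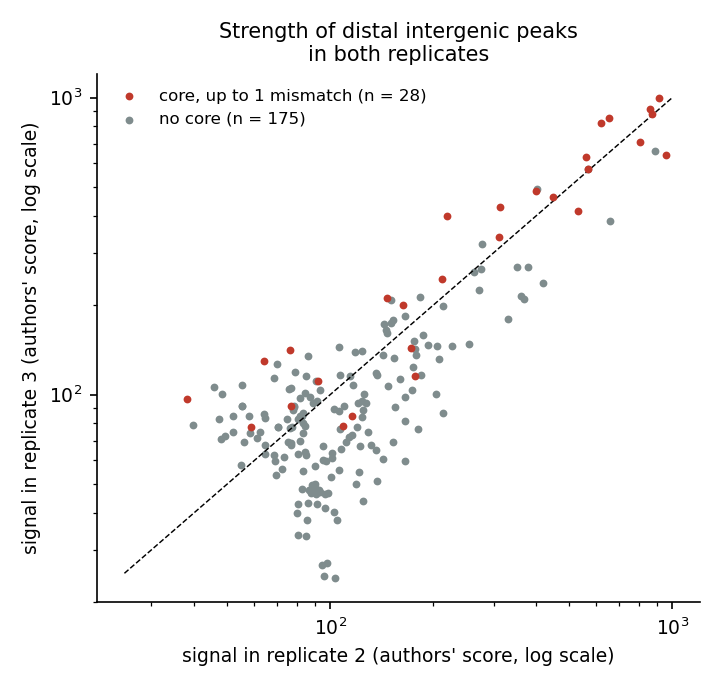
Signal of the 203 distal intergenic peaks listed in both replicates, replicate 2 against replicate 3 (authors' score, both axes log), with peaks that hold the core at up to 1 mismatch in red (28) and others in grey (175). Some of the strongest peaks lie near the line of equal values (870 and 881 at del / E2f2) and others off it (659 and 383 at Sol1 / Cyp9f2). The cloud below about 250 is wide. The line is a guide to the eye, since the scores have no stated common scale.

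As in the other classes, fewer weak peaks than strong ones were strong in both replicates. Between signals of 250 and 500 it was 92.1% of distal intergenic peaks, against 86.2% of distal peaks inside genes and 77.7% of promoter peaks, and below 250 it was 40.3%, against 43.6% of distal peaks inside genes and 35.0% of promoter peaks. In the strongest of 4 bins by pooled signal, 54 of 57 peaks were strong in both replicates, then 43 of 56, 24 of 56 and 6 of 57 (10.5%). The 18 peaks with no entry in replicate 2 had signals of 127 to 673 and a median of 144. The 5 with none in replicate 3 were at CR41519, Rh5 / lncRNA:CR44588, CG10479 / lncRNA:CR45439, vn / CG5568 and B-H2 / lncRNA:CR43491. That beyond CR41519 had 362 pooled and 437 in replicate 2. Strong in neither replicate were 9 peaks (3.98%), with pooled signals of 127 to 142. Over all optimal peaks 72.7% were strong in replicate 2, 81.5% in replicate 3 and 58.5% in both. Those values leave a similarly small share strong in neither, so the 9 are not read as many or few. The lower signals also had the entries of a fixed width: 141 distal intergenic peaks were 410 bp wide, and the highest signal among them was 359. The median width was 410 bp over all optimal peaks as well, so this width belongs to the whole list.

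The distal intergenic rule was also applied to each replicate's own strongest entries, again as many as there are optimal peaks. It took 358 in replicate 2 and 173 in replicate 3. Tandem shares were 50.4% in replicate 2 and 50.3% in replicate 3, convergent shares 23.5% and 19.7%, and divergent shares 26.1% and 30.1%. The share beside gene ends was 15.9% in replicate 2 and 24.3% in replicate 3 (mean 20.1 ± 5.91, SD, n = 2), against 6.47% of bases. The desert share was 20.7% and 11.6% (mean 16.1 ± 6.48, SD, n = 2), against 45.2% of bases. Both replicates lay on the same side of the bases in both shares, and they differed from each other in the number of peaks by over 1.5 times.

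Peaks close to the 500 bp limit had signals that overlapped on its 2 sides. The distal intergenic peaks nearest to a start were at 514 bp (CG17896 / CG17778, 656), 518 bp (CG10479 / lncRNA:CR45439, 199) and 520 bp (Mkp3 / lncRNA:CR45386, 238). Just outside were intergenic peaks at 495 bp (143), 489 bp (152) and 488 bp (160), each with a lower signal than the 3 inside. Slightly farther inside, at 525 to 533 bp, distal intergenic peaks had signals of 186, 127, 126, 130 and 127. No step at the limit is therefore read from these peaks. The median GC of the 100 bp windows was 36% (34 to 39) for the distal intergenic peaks, the same as the 36% for all optimal peaks and below the 41% of the candidates. A single summit (0.442%), at CG43774 / ed, lay in an annotated transposable element, against 3 (0.101%) of all optimal peaks. Windows mostly soft-masked as repeat were at 20 peaks (8.85%). The median soft-masked share of a window was 15.5%, against 17% over all optimal peaks.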

How the data were processed

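ChIP-seq of GFP-tagged ZIPIC was done in 2 biological replicates of 1 group. The authors deposited peak lists on dm6 that held, per the labels' file descriptions, 30000 candidate entries for each replicate and for both pooled, and 2971 optimal peaks. The deposited signal value is a score per entry, without a stated scale, and was used to rank and describe entries. The deposited summit offset gave each position. Aligner and caller were not given in the sources used here. Read depth is unknown, and other lists were not used here. Every optimal peak was among the 2971 strongest entries of the pooled list.

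Summits were placed on Ensembl release 115 gene models (BDGP 6.54; 18164 models, transposable elements left out) with Python 3.11.15, numpy 2.4.6, pandas 2.3.3 and scipy 1.17.1. Flanking genes were the nearest on each side. Geometry and motif search were tested on simulated data. Shares have exact Clopper-Pearson 95% intervals, for counting error only, and no test was made. Members and lists were chosen with earlier results of these data known, and symbols of 4 gene lists were written after the files were seen. Named genes flanked the 20 strongest peaks, every peak with the exact core, the 5 farthest from a gene, the 5 nearest a gene end, and every interval with 2 or more; other genes, from lists and subsets, were named after their values were seen. Alternatives changed the peak threshold, start distance, gene models, overlap, replicates, distances, entries and core.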

Additional observations from a re-analysis of the deposited data

How the results depend on the processing

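Of the recomputed values 64 stayed within the main interval or 1.5 times the main count, orientation shares among them under each alternative run, and 20 moved; the divergent share stayed at 25.3% to 31.7%, but its interval held the share of bases under 3 alternatives. With only the optimal peaks above the median signal, the distal intergenic peaks numbered 87, of which 93.1% were strong in both replicates, 96.6% were listed in replicate 2 and 25.3% held the core at up to 1 mismatch; their median signal was 334, and 12.3% of flanking genes were bound. Comparison shares over all optimal peaks and all genes at that threshold are not given. Leaving out peaks can only lower the bound share of all genes, so no fall in binding is read from the 12.3%. Under protein-coding genes only the desert share was 23.1% (54.1% of bases). With whole peaks outside genes the gene-end share was 15.6%. Leaving out 1 replicate gave 173 to 358 peaks, gene-end shares of 15.9% to 24.3%, desert shares of 11.6% to 20.7% and median signals of 77.8 to 104, which are on each replicate's own scale; shares that need both replicates could not be given. Gene-end shares were 11.9% at 250 bp and 31.0% at 1000 bp, against 3.59% and 11.5% of bases. Desert shares were 32.4% at 2000 bp and 3.56% at 10000 bp, against 69.6% and 27.5% of bases. Counting entries of any rank, 89.8% were in both replicates. Of all optimal peaks 79.3% were listed in replicate 2 and 99.2% in replicate 3, so no more than 79.3% can be in both. The exact core was at 6.19%. With summits within 1000 bp of a start counted, 33.5% of flanking genes were bound, against 17.4% of all genes; without the distal intergenic peaks themselves, which raise this count by their position, it was 19.0% against 17.1%. The cause of these changes was not tested where the setting does not itself set the value. No paired analysis was possible because there is 1 group. The limits are 2 replicates, no read counts, an untested scale of the score, peaks that share intervals, and gene models of a later date than the lists.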
